A study of Rattus norvegicus with 15 samples.

Results

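The Cyp2b family comprises the cytochrome P450 2B genes of the rat, taken here as Cyp2b1, Cyp2b2, Cyp2b3, Cyp2b12, Cyp2b15 and Cyp2b21. Every non-control probe whose gene name or description in the array files names one of these 6 genes or a cytochrome P450 2B was taken, which gave 11 of 41012 probes. Of these, 9 were well above background on at least 7 arrays and were tested with 23275 probes in all. Fipronil is a phenylpyrazole insecticide. A suspension of it (3 mg/kg per day) was given through a feeding needle over 14 days to 8 female Wistar Crl:WI rats, and 7 rats of the same sex, strain and age (2 to 3 months) received the vehicle, a methylcellulose and Tween 80 solution. Liver RNA of each rat was hybridised with Cy3 to 1 one-colour array, and the arrays lay on 4 slides that each held both groups.

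CYP2B enzymes are haem proteins of the endoplasmic reticulum that oxidise many drugs, steroids and pesticides with electrons passed on by P450 oxidoreductase. In rat liver, Cyp2b1 and Cyp2b2 are the classical genes induced by phenobarbital, through the constitutive androstane receptor (CAR, gene Nr1i3) and its partner RXR. Cyp2b3 is a constitutive liver form that phenobarbital does not induce, and Cyp2b12 is known from the sebaceous gland.

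The 6 genes lie in 1 cluster on chromosome 1, and their sequences are close to each other. In the RefSeq table of assembly GRCr8, the 250-base promoter windows of Cyp2b1 and Cyp2b2 were identical at 225 of 233 aligned bases (96.6%), and those of Cyp2b12 and Cyp2b15 at 184 of 198 (92.9%). The other pairs of genes shared 66.5% to 79.6% of aligned bases. For Cyp2b1, Cyp2b2 and Cyp2b3 the last bases of the window lie inside the annotated gene; they were aligned and searched and are not printed. The promoters of the 4 genes whose probes fell into the patterns described here are given 5′ to 3′ up to the base before the gene's annotated start, at chr1:90645869-90646097 (plus strand, Cyp2b1), chr1:90722031-90722242 (plus strand, Cyp2b2), chr1:90780242-90780467 (plus strand, Cyp2b3) and chr1:91042753-91043002 (minus strand, Cyp2b21), with the letters TTGCATAA in capitals.
Cyp2b1: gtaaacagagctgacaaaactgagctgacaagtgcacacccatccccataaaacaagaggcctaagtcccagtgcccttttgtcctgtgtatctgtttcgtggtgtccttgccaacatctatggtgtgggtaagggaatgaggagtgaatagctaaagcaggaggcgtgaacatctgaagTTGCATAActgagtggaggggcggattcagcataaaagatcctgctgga
Cyp2b2: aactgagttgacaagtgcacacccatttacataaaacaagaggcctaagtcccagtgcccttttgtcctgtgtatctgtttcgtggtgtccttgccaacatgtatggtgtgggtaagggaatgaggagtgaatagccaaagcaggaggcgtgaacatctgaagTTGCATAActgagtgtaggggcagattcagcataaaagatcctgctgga
Cyp2b3: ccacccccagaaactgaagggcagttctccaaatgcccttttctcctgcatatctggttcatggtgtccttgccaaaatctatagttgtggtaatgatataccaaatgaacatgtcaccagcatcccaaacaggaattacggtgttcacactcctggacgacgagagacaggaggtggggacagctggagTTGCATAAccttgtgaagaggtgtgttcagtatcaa
Cyp2b21: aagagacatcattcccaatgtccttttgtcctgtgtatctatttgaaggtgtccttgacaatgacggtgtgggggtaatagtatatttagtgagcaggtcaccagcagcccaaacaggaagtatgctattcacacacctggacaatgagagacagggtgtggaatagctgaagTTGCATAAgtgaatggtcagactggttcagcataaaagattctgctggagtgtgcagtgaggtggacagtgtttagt
TTGCATAA, the core of a C/EBP-type element, was searched on both strands of the 250-base windows. It was present in these 4 genes and in 264 of 33469 promoters of the table (0.789%), and these letters were not in the windows of Cyp2b12 and Cyp2b15. AGGTCA, a core element of nuclear receptors, was present in the windows of Cyp2b21, Cyp2b12 and Cyp2b15 and in 14.1% of all windows. Sequence farther upstream was not searched, so sites there are not covered for any of the genes. The exact letters TATAAA, searched as the TATA box, were in none of the 6 windows and in 12.9% of all windows. Variants of these letters were not searched. None of the 3 motifs overlaps another in these windows.

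Several probes carry the name of the same gene, and they are told apart here by a letter. Probe coordinates are those of build rn4 in the array files, all on chromosome 1. There are 3 probes described as cytochrome P450 2B1. Cyp2b1-a lies at chr1:81279800-81285942, a span of 6143 bases for 1 probe, Cyp2b1-b at chr1:81283700-81283759 and Cyp2b1-c at chr1:81289963-81290022. Cyp2b1-b has the gene name Cyp2b15 in the files and a description that names 2B1. Cyp2b2-a lies at chr1:81354719-81354778 and Cyp2b2-b at chr1:81359275-81359334. The Cyp2b3 probe lies at chr1:81185388-81185447. Cyp2b21-a (chr1:81581501-81581560) and Cyp2b21-b (chr1:81670825-81670884) carry the older name Cyp2b13. The Cyp2b12 probe (chr1:81790847-81790906) is named Cyp2b15 in the files, and its accession belongs to Cyp2b12 in the current table. Cyp2b15-a (chr1:81842066-81842125) is described as 2B15, and Cyp2b15-b (chr1:81867125-81872090) is described as similar to 2B12 and matched Cyp2b15 by gene number. Exon and UTR positions under the probes are not given, since no rn4 annotation was used here.

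The annotation of the probes overlaps between genes. Of the 4 probes that list the Ensembl transcript of Cyp2b2, 2 are Cyp2b2 probes and the others are Cyp2b1-b and Cyp2b1-c. Cyp2b1-a lists 3 transcripts without that one, and Cyp2b2-a lists that one alone. Cyp2b2-b also lists 2 transcripts of the Cyp2b1 probes. The Cyp2b12 probe and Cyp2b15-a share 1 transcript. Which transcripts each probe binds was not tested, so a value belongs to a probe and its assignment to 1 gene is uncertain.

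Signal is the processed intensity on a log2 scale minus the array's own 75th percentile. That percentile, the brightness of an array, was 184.9 to 269.5 intensity units with fipronil and 115.4 to 214.4 with vehicle. The share of probes well above background was 55.4% to 59.54% with fipronil, against 50.72% to 57.73% with vehicle. Of the 7 hepatocyte markers, 5 (Alb, Ttr, Tf, Serpina1 and Fgb) were saturated on all 15 arrays and give no difference between groups, so the labelled tissue carried its defining markers. Lists for perivenous hepatocytes, periportal hepatocytes, cholangiocytes, Kupffer cells, stellate cells, endothelial cells and keratinocytes or sebaceous gland had 0 genes past limma's threshold. At an unadjusted p under 0.05 there were 2 of 9, 2 of 8 (1 of them, Arg1, saturated on all arrays), 1 of 5, 0 of 6, 1 of 7, 3 of 4 and 0 of 3 genes in that order, and the endothelial list had a median difference of 0.36 and a mean signal of 1.67 to 2.21 with fipronil and 1.24 to 1.97 with vehicle. Over the whole array, 4000 of 23275 tested probes had an unadjusted p under 0.05. The part of these cell types in the results was not tested. In whole liver, a change in the number of cells of a type and a change in RNA per cell cannot be told apart.

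The 3 Cyp2b1 probes did not give the same result: Cyp2b1-b and Cyp2b1-c were higher after fipronil, and Cyp2b1-a did not pass the test. Cyp2b1-b had a signal of -0.97, 0.67 and 2.00 (lowest, median and highest) in fipronil livers, against -3.43, -2.40 and -1.20 in vehicle livers. The groups did not overlap, and fipronil replicate 1 was the highest of all rats. Fipronil rats averaged 0.65 ± 0.95 (SD, n = 8), against -2.19 ± 0.89 (SD, n = 7) in vehicle rats, a log2 difference of 2.84 (SE 0.43) or 7.15-fold (95% interval 3.79 to 13.5), with a limma adjusted p of 0.00386 and an exact two-sided permutation p of 3.11e-04. Intensity before scaling was low in vehicle rats, at 18.22 to 93.49 units, against 94.53 to 827.9 with fipronil. The size of the difference depended on the background correction. It was 1.94 in the authors' deposited table and 1.62 after normexp with quantile normalization, the latter below the interval's lower limit of 1.92.

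Cyp2b1-c had a signal of 1.48, 2.58 and 3.88 in fipronil livers and 0.01, 0.91 and 1.405 in vehicle livers. Again no rat of one group reached into the other, and fipronil replicate 1 was the highest. The difference was 1.80 (SE 0.31), or 3.47-fold (95% interval 2.21 to 5.46), with a limma adjusted p of 0.00930 and an exact permutation p of 3.11e-04. Both probes were higher with fipronil on all 4 slides, by 2.11 to 3.79 for Cyp2b1-b and by 0.81 to 2.87 for Cyp2b1-c.

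Cyp2b1-a had a signal of 1.59, 2.88 and 3.70 in fipronil livers and 0.67, 2.76 and 3.64 in vehicle livers. The groups overlapped almost wholly, and the lowest rats were vehicle replicate 3, fipronil replicate 7 and fipronil replicate 2. The difference was 0.06 (SE 0.42, 95% interval -0.83 to 0.95, limma adjusted p = 0.962), which leaves room for a change of nearly 2-fold in either direction. Within slides it ranged from -1.30 to 1.17, lower with fipronil on slides 1 and 3.

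These 2 probes are those of the family that passed, 2 of 9 tested, beside 0.520% of all tested probes that passed as higher (121 of 23275) and 0.288% that passed as lower (67 of 23275). With arrays scaled to their median, which moved the median difference of all probes to 0.05 from -0.02, the split over all probes was 184 higher and 53 lower. Groups that did not overlap, with fipronil higher, were seen for the same 2 members and for 0.374% of all tested probes (0.597% in either direction, 0.223% with fipronil lower). The share past the threshold in either direction was 0.808%. With array brightness as a covariate the differences of Cyp2b1-b (2.85, adjusted p = 0.0557) and Cyp2b1-c (1.84, adjusted p = 0.0942) no longer passed, over a range of adjusted p from 9.44e-04 to 0.0557 for Cyp2b1-b and from 0.00253 to 0.109 for Cyp2b1-c in 31 alternatives each. Brightness was itself higher with fipronil (median 204.45 intensity units, against 161.6 with vehicle), so that fit cannot fully separate brightness from treatment. Over all probes, 42 passed in it, against 188 without the covariate. Neither passed without slide 1 or without slide 4, Cyp2b1-c also not without slide 2, and normexp background correction with quantile normalization gave Cyp2b1-b a smaller difference of 1.62 (adjusted p = 0.0105).

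**Figure D1:**
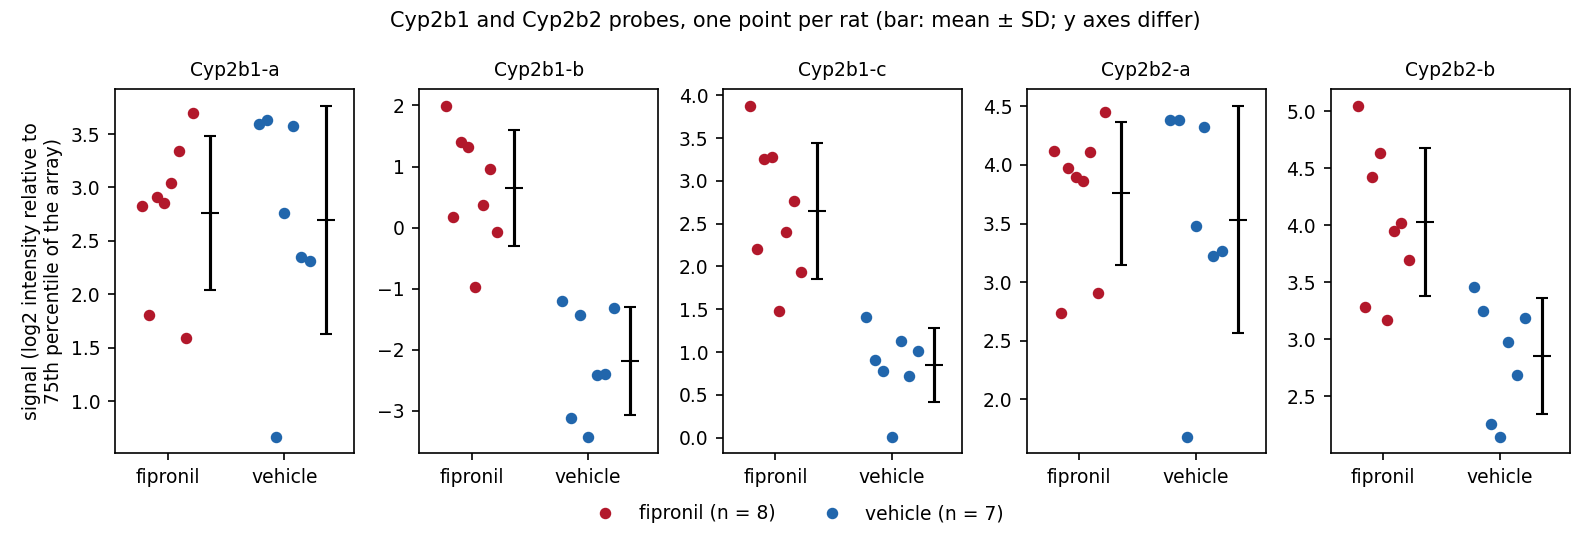
Signal (log2 scale, 75th percentile of each array at 0) of the 5 probes described as Cyp2b1 or Cyp2b2, 1 point per rat with the mean and SD of the 8 fipronil and 7 vehicle rats. The groups are apart for Cyp2b1-b and Cyp2b1-c, overlap in part for Cyp2b2-b and overlap almost wholly for Cyp2b1-a and Cyp2b2-a.

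The pair of Cyp2b2 probes differed in the same way, although neither passed the test. Cyp2b2-b had a signal of 3.17, 3.99 and 5.05 in fipronil livers, against 2.15, 2.97 and 3.46 in vehicle livers. All 8 fipronil rats lay above the vehicle mean and 6 of 8 above the highest vehicle rat. The difference was 1.18 (SE 0.28, 95% interval 0.59 to 1.77), or 2.26-fold, with a limma adjusted p of 0.0605 and an exact permutation p of 0.00218, and within the 4 slides it ranged from 0.59 to 2.33. It passed in 7 of 31 alternatives, among them those without fipronil replicate 2 (1.29, adjusted p = 0.0441) or without fipronil replicate 5 (1.30, adjusted p = 0.0315), over a range of adjusted p from 0.0315 to 0.310.

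Cyp2b2-a had a signal of 2.73, 3.93 and 4.45 in fipronil livers and 1.68, 3.48 and 4.39 in vehicle livers. Its groups overlapped, with the same 3 rats at the bottom as for Cyp2b1-a. The difference was 0.22 (SE 0.37, 95% interval -0.57 to 1.02, limma adjusted p = 0.811).

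Whether probes of 1 gene changed by different amounts was tested on the difference of their signals in each rat, over 4 contrasts chosen after the values had been seen, with two-sided exact permutation tests adjusted over the 4. The change of Cyp2b1-b exceeded that of Cyp2b1-a by 2.78 (adjusted exact p = 0.00932). The change of Cyp2b1-c exceeded that of Cyp2b1-a by 1.74 (adjusted exact p = 0.0168). Between the 2 probes that passed, the gap depended on the background correction: the change of Cyp2b1-b exceeded that of Cyp2b1-c by 1.04 (adjusted exact p = 0.00186), but by 0.36 in values of the authors' deposited table (adjusted exact p = 0.0265) and by 0.087 after normexp with quantile normalization (adjusted exact p = 0.442), where the changes were 1.62 and 1.53. The change of Cyp2b2-b exceeded that of Cyp2b2-a by 0.96 (adjusted exact p = 0.0284), which passed in 15 of 22 alternatives (adjusted exact p from 0.00866 to 0.216). Without slide 1, neither Cyp2b1-b (2.13, adjusted exact p = 0.104) nor Cyp2b1-c (1.21, adjusted exact p = 0.170) differed detectably in its change from Cyp2b1-a, and normexp gave 1.58 for Cyp2b1-b (adjusted exact p = 0.0392).

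**Figure D2:**
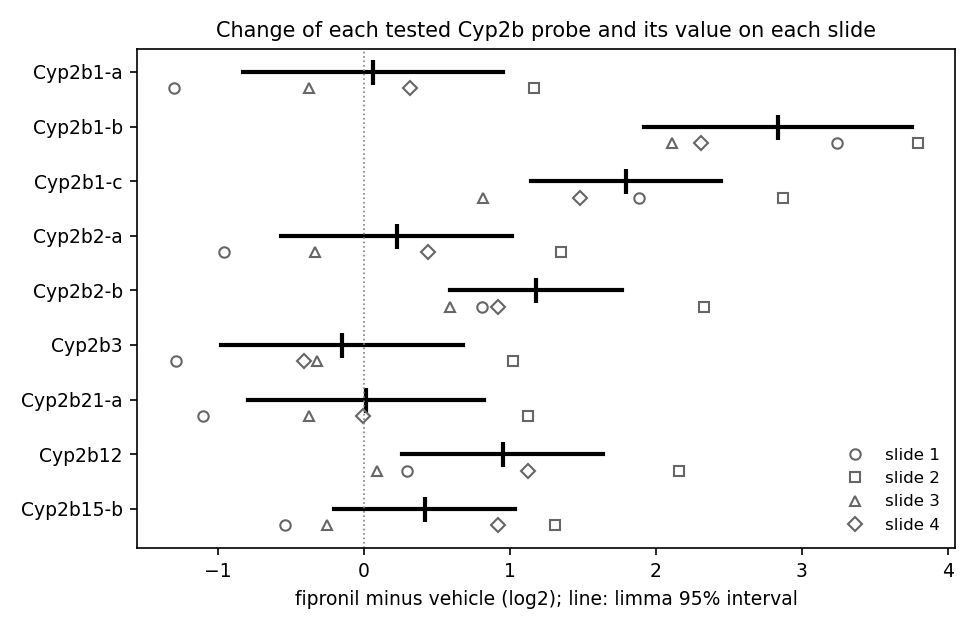
Fipronil minus vehicle log2 difference of the 9 tested Cyp2b probes, with 95% intervals from limma as lines and the difference within each of the 4 slides as open symbols. The intervals of Cyp2b1-b, Cyp2b1-c, Cyp2b2-b and Cyp2b12 lie above 0, and after adjustment over all probes Cyp2b1-b and Cyp2b1-c passed.

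Cyp2b3, the constitutive form, had a signal of 6.30, 7.90 and 8.32 in fipronil livers and 5.93, 7.82 and 8.56 in vehicle livers. The groups overlapped, and 5 of 8 fipronil rats lay above the vehicle mean. The difference was -0.15 (SE 0.39, 95% interval -0.98 to 0.68, limma adjusted p = 0.887). The probe was saturated on 2 fipronil arrays, among them the highest fipronil value, and on vehicle replicate 1 (8.12), whose values are lower bounds.

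Cyp2b21-a had a signal of 3.45, 4.74 and 5.34 in fipronil livers and 2.66, 4.58 and 5.40 in vehicle livers. The groups overlapped, and the difference was 0.01 (SE 0.38, 95% interval -0.80 to 0.83, limma adjusted p = 0.992). Cyp2b21-b, named for the same gene, exceeded background clearly in 1 of 8 fipronil rats and 0 of 7 vehicle rats and was not tested, so only 1 Cyp2b21 probe gave a level.

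Cyp2b12 had a signal of 0.69, 1.62 and 2.66 in fipronil livers, against -0.47, 0.69 and 1.73 in vehicle livers. The groups overlapped, with 7 of 8 fipronil rats above the vehicle mean and 3 of 8 above the highest vehicle rat. The difference was 0.95 (SE 0.33, 95% interval 0.26 to 1.64), which did not pass (limma adjusted p = 0.164, exact permutation p = 0.0210 before adjustment), and within slides it ranged from 0.09 to 2.16. The 3 keratinocyte and sebaceous gland markers tested had a mean signal of -2.74 to -1.69 on fipronil arrays and -2.79 to -1.85 on vehicle arrays; their part in the Cyp2b12 signal was not tested.

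Cyp2b15-b had a signal of -0.31, 0.66 and 1.19 in fipronil livers and -0.93, -0.12 and 0.99 in vehicle livers. The groups overlapped, and the difference of 0.42 (SE 0.29, 95% interval -0.21 to 1.04) did not pass (limma adjusted p = 0.501). Cyp2b15-a exceeded background clearly in 0 of 8 fipronil rats and 0 of 7 vehicle rats and was not tested.

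**Figure D3:**
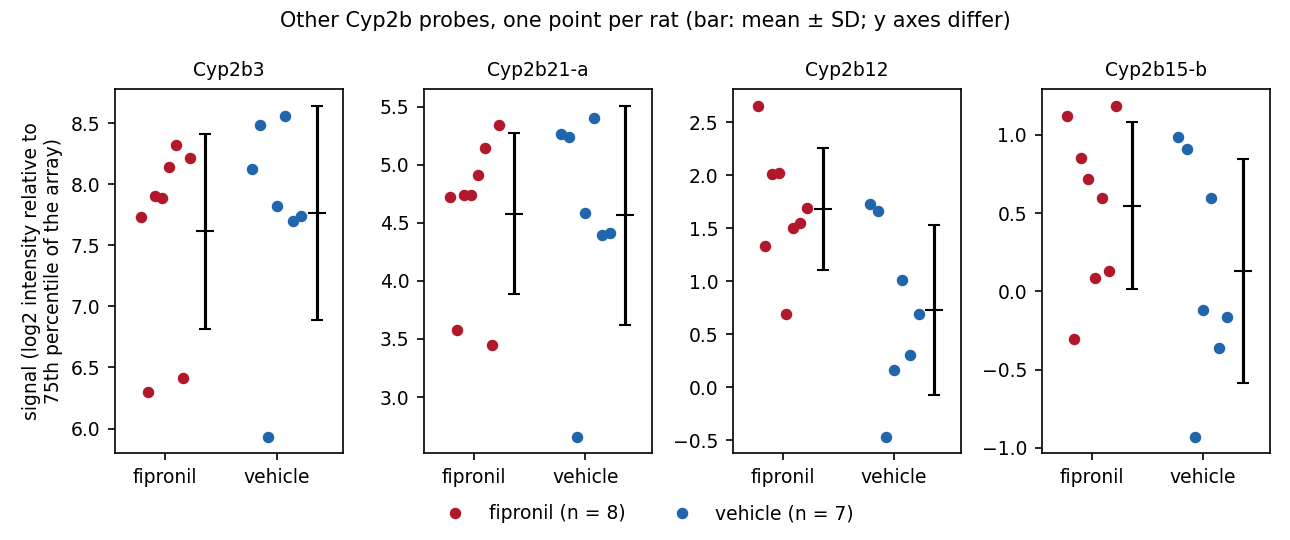
Signal of the Cyp2b3, Cyp2b21-a, Cyp2b12 and Cyp2b15-b probes, 1 point per rat with the mean and SD of the 8 fipronil and 7 vehicle rats, with a y axis of its own for each probe. The groups overlap for all 4 probes, and vehicle replicate 3 is the lowest rat in each panel.

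Rats of 1 group differed from each other more in the Cyp2b probes than in most probes of the array. The SD within groups was 0.59 (Cyp2b2-b) to 0.93 (Cyp2b1-b) over the 9 tested probes, against a median of 0.255 over 23185 probes. It was larger than that of 93.7% of those probes for Cyp2b2-b and of 98.7% for Cyp2b1-b, with the other members in between.

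This spread was shared between probes. With group means removed, the signal of 36 pairs of probes was correlated over the 15 rats, and 20 pairs passed after adjustment over the 36 (permutation test, 100000 resamples). Cyp2b1-a, Cyp2b2-a, Cyp2b3 and Cyp2b21-a followed each other, with Pearson's r from 0.944 to 0.991 in their 6 pairs. Cyp2b1-a and Cyp2b21-a had r = 0.991 and Spearman's rho = 0.971 (adjusted permutation p = 4.00e-05 and 6.00e-05, the raw values of 1.00e-05 being the smallest that 100000 resamples give), and r = 0.978 without the 2 rats farthest from the median. That pair had r = 0.994 in the 8 fipronil rats, 0.990 in the 7 vehicle rats and 0.997 with slide means also removed (14 arrays). Fipronil replicates 2 and 7 and vehicle replicate 3 were the 3 lowest rats for all 4 probes.

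Cyp2b1-b and Cyp2b1-c, which were higher with fipronil, and Cyp2b2-b, which did not pass, followed each other too. Cyp2b1-c and Cyp2b2-b, named for different genes, had r = 0.913 and rho = 0.907 (adjusted permutation p = 4.00e-05 and 6.00e-05), and r = 0.855 without the 2 farthest rats. Cyp2b1-b and Cyp2b1-c had r = 0.869 and rho = 0.811 (adjusted permutation p = 6.55e-05 and 0.00129), and r = 0.776 without the 2 farthest rats. With slide means removed, these pairs had r = 0.913 and 0.893. The remaining pair, Cyp2b1-b and Cyp2b2-b, was weaker, with r = 0.71 and rho = 0.671 (adjusted permutation p = 0.00788 and 0.0157). Its r was 0.532 without the 2 farthest rats and 0.726 with slide means removed. It was 0.938 in fipronil rats and 0.353 in vehicle rats. Cyp2b1-b and Cyp2b1-c had 0.99 and 0.679 in that order, and Cyp2b1-c and Cyp2b2-b had 0.956 and 0.835. Whether these values differed between fipronil and vehicle rats was not tested. Between these groups of probes, Cyp2b1-a did not follow the other Cyp2b1 probes detectably: r was -0.277 for Cyp2b1-a and Cyp2b1-b (rho = -0.296, adjusted permutation p = 0.413 and 0.358), and 0.033 for Cyp2b1-a and Cyp2b1-c (rho = 0.011, adjusted permutation p = 0.904 and 0.975). Cyp2b2-a and Cyp2b2-b had r = 0.494, which did not pass, and rho = 0.579, which did (adjusted permutation p = 0.101 and 0.0495), and r = 0.259 without the 2 farthest rats.

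**Figure D4:**
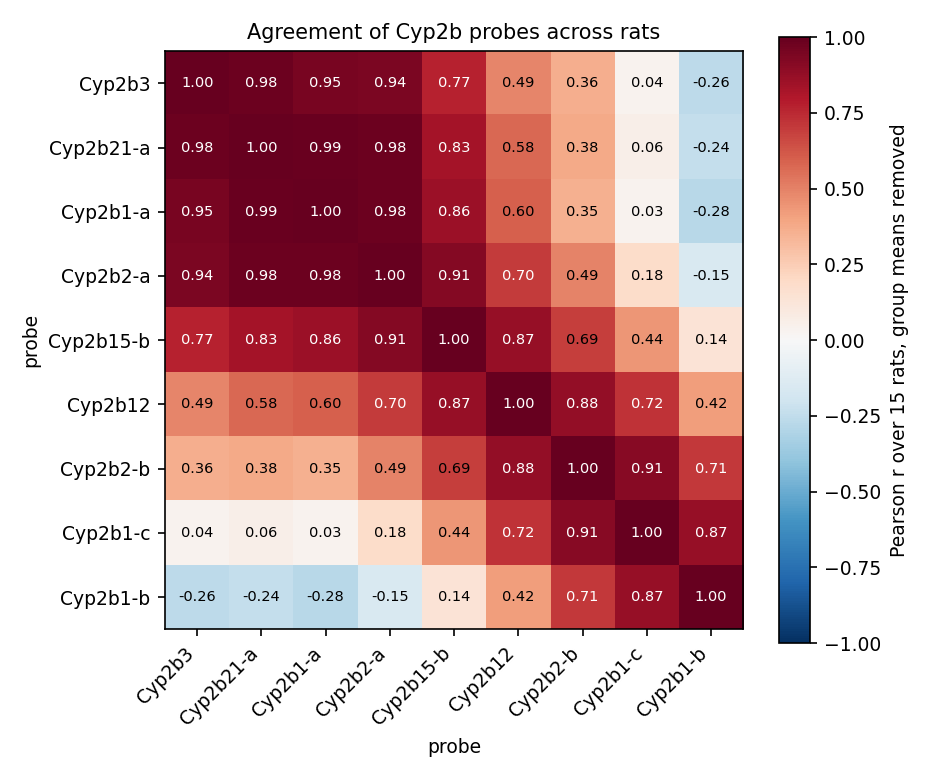
Pearson's r of group-centred signal between the 9 tested Cyp2b probes over the 15 rats. The block of Cyp2b1-a, Cyp2b2-a, Cyp2b3 and Cyp2b21-a has r of 0.944 or more, and Cyp2b1-a has r of -0.277 with Cyp2b1-b and 0.033 with Cyp2b1-c.

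**Figure D5:**
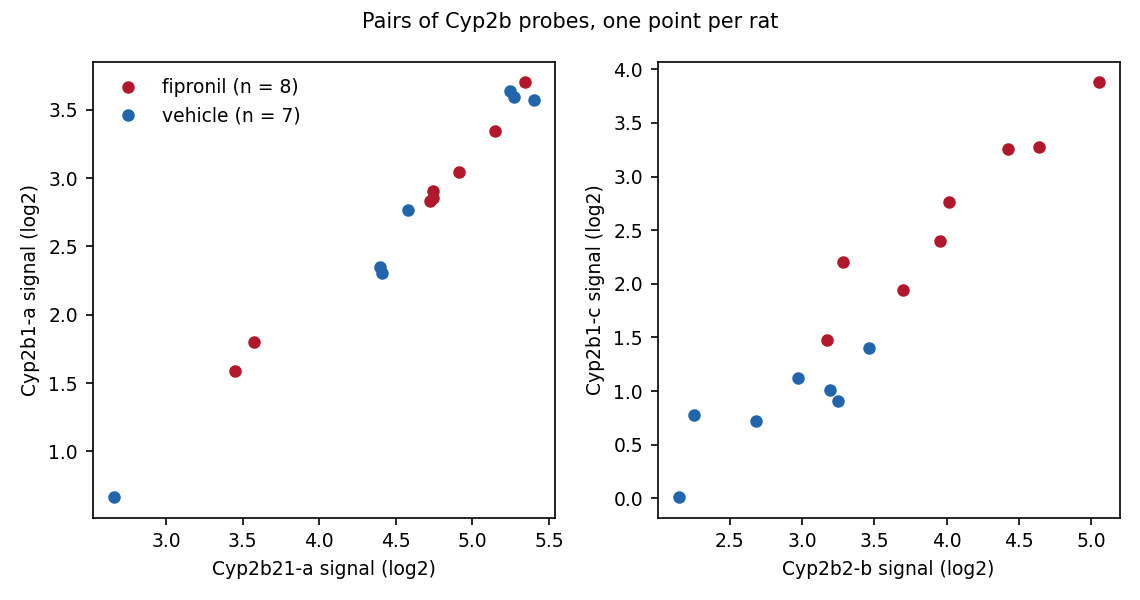
Signal of 2 pairs of probes, 1 point per rat, for 8 fipronil and 7 vehicle rats. Cyp2b1-a against Cyp2b21-a (left) puts both groups on 1 line with vehicle replicate 3 at the low end, and Cyp2b1-c against Cyp2b2-b (right) puts the fipronil rats at the upper end.

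Cyp2b12 stood between these groups of probes. Over all rats it followed Cyp2b2-b (r = 0.876, rho = 0.911, adjusted permutation p = 4.00e-05 and 9.00e-05, r = 0.817 without the 2 farthest rats) and Cyp2b15-b (r = 0.869, rho = 0.868, adjusted permutation p = 6.55e-05 and 2.16e-04, r = 0.790 without the 2 farthest rats). Cyp2b15-b had its highest r with Cyp2b2-a (r = 0.915, rho = 0.946, adjusted permutation p = 4.00e-05 and 6.00e-05). It also followed Cyp2b1-a, Cyp2b21-a and Cyp2b3 (r = 0.857, 0.832 and 0.766), and did not pass with Cyp2b1-b or Cyp2b1-c. Cyp2b12 also passed with Cyp2b1-c (r = 0.722) and Cyp2b2-a (r = 0.702). With Cyp2b1-b, Cyp2b12 had r = 0.925 in the 8 fipronil rats and -0.020 in the 7 vehicle rats. With Cyp2b1-a it had 0.090 in fipronil rats and 0.886 in vehicle rats. The difference between the groups in these correlations was not tested. Group-centred signal of the 9 probes had r from -0.445 (Cyp2b3) to -0.011 (Cyp2b1-b) with array brightness over the 15 arrays, given as a description.

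Outside the family, the named genes most like Cyp2b1-a, Cyp2b2-a and Cyp2b21-a across the 15 rats, among 10706 genes and with group means removed, were Il22ra2, a soluble receptor for interleukin 22, with r = 0.897, 0.882 and 0.908 in that order, and Dcun1d1, a factor of cullin neddylation, with r = 0.837, 0.820 and 0.824. Zfp955a was most like Cyp2b1-b (r = 0.906), Tbc1d2b most like Cyp2b1-c (r = 0.817), Fhit most like Cyp2b2-b (r = 0.799), Trdn most like Cyp2b12 (r = 0.854) and Mug2 most like Cyp2b15-b (r = 0.83). These are the highest of many correlations and carry no test.

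The receptors upstream of Cyp2b did not pass the test. Nr1i3, which encodes CAR, had a signal of -1.18 ± 0.42 (SD, n = 8) in fipronil rats, against -1.20 ± 0.35 (SD, n = 7) in vehicle rats (difference 0.01, SE 0.19, limma adjusted p = 0.984). Nr1i2, which encodes the related receptor PXR, had 4.95 ± 0.34 (SD, n = 8) in fipronil rats, against 4.98 ± 0.17 (SD, n = 7) in vehicle rats (difference -0.03, SE 0.14, limma adjusted p = 0.934). Of 30 genes of CAR and its partners, 29 were tested and 0 were higher after adjustment in limma, with 2 at an unadjusted p under 0.05 in either direction, beside 0.714% higher and 0.250% lower among all 10782 named genes. An unadjusted p under 0.05 was found for 4000 of all 23275 tested probes. The list's median difference was 0.00, against -0.01 for all named genes.

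Other known targets of CAR or PXR were higher after fipronil in 14 cases. Of 33 genes listed, 30 were tested, 14 were higher (beside the 0.714% of named genes) and 0 lower, with a median difference of 0.97. The list was chosen with earlier results of these data known. An unadjusted p under 0.05 in either direction was found for 25 of the 30, beside 4000 of all 23275 tested probes. That count includes Cyp2c7, Gsta2, Gsta3 and Alas1, whose values are limited by saturation. Cyp2c7 was saturated on all 15 arrays and gives no difference. Gsta2 and Alas1 were saturated on 8 fipronil and 6 vehicle arrays each, and Gsta3 on 5 fipronil arrays. The 14 were the P450 genes Cyp3a23-3a1, Cyp3a18 and Cyp3a62, the glucuronosyltransferases Ugt1a1 and Ugt2b1, the sulfotransferase Sult1b1, the transporters Abcb1b and Slco1a4, the hydrolases Ephx1, Ces2a and Ces2c, the aldehyde-handling Aldh1a1 and Akr7a3, and the stress gene Gadd45b, and their increases ran from 1.71-fold (Sult1b1) to 16.9-fold (Cyp3a23-3a1). With array brightness as a covariate, Cyp3a62, Ephx1, Aldh1a1, Akr7a3 and Sult1b1 no longer passed. Over all 32 alternatives, Cyp3a62 passed in 15, Akr7a3 in 12, Sult1b1 in 24, and Ephx1 and Aldh1a1 in 28 each, and the other 9 genes passed in all 32. Across rats, with group means removed, Cyp2b1-b and Cyp2b1-c had r from -0.352 to 0.598 with these 14 genes; 0 of 28 pairs passed after adjustment (smallest adjusted permutation p = 0.241), and 4 did before it.

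Of 11 genes that supply P450 enzymes with electrons and haem, 10 were tested, with a median difference of 0.17. In limma, 5 had an unadjusted p under 0.05, beside 4000 of all 23275 tested probes. Of these genes, Pgrmc1, Cyb5a and Fech were higher. The values of Alas1 and Alad were lower, but both were saturated on most arrays of both groups and give no direction. Cyb5a was saturated on 7 fipronil and 0 vehicle arrays, and Alad on 7 fipronil and 6 vehicle arrays. After adjustment 1 gene was higher and 0 were lower, beside 0.714% higher and 0.250% lower among all named genes. The 1 gene was Pgrmc1, a haem-binding partner of P450 enzymes (0.36, SE 0.08, limma adjusted p = 0.0490), which passed in 12 of 32 alternatives (adjusted p from 0.00669 to 0.280). Por, the P450 oxidoreductase, differed by 0.35 (SE 0.17, limma adjusted p = 0.311), and Alas1, the first enzyme of haem synthesis, by -0.26 (SE 0.10, limma adjusted p = 0.197) with saturation on 8 fipronil and 6 vehicle arrays, so that its level is only a lower bound there.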

How the data were processed

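The deposited array files hold spot intensity from Agilent Feature Extraction 9.5.3.1, per the file headers. Background had been subtracted from the processed intensity in the deposited files, with no scaling across arrays. Per the headers, other columns hold the mean, median and background intensity of each spot, or 0 or 1 flags (saturation, above background, outlier). The normexp alternative started from the mean and background intensity. The deposited value table holds log2 values for 22244 probes, made by the authors with limma and Feature Extraction 9.5, per the submitters' processing notes. It served as an alternative. Its Spearman correlation with processed intensity was 0.993 to 0.998 across probes and its column medians were 7.651 to 7.661; centring and direction beyond that are not given in the sources used here.

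Outlier spots were left out, spots of a probe averaged, and each array's 75th percentile was subtracted from its log2 processed intensity. Probes well above background on at least 7 arrays and missing on at most 3 were tested one by one with limma 3.58.1 in R 4.3.3 (lmFit and eBayes, two-sided, Benjamini-Hochberg over all tested probes, threshold 0.05), and the procedure was tested on simulated data. The number of arrays limits the precision. SD is over rats and intervals are at the 95% level. A listed gene with several probes counts by its brightest. Probes were named through the RefSeq table (GRCr8), and 20468 of 41012 matched no name. All members are named, as are list genes past the threshold and Nr1i3, Nr1i2, Por and Alas1, and for likeness the 5 closest genes were ranked and the first are named. The members, lists and tests were chosen with earlier results of these data known. The alternatives changed the background correction, scaling, probe filter, spot and probe handling, variance model, slide, brightness, array weights and replicate number, or left out an array or a slide. One result of the list of CAR and its partners is not reported here.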

Additional observations from a re-analysis of the deposited data

Results flagged for a closer look

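In 22 groups of rats (11 probes, each in fipronil and in vehicle rats), 4 held 1 array far from the others, by Dixon's 95% critical value, which by its construction flags about 1 in 20 groups of independent, normally distributed values. The probes concerned are not independent of each other. Vehicle replicate 3 was that array for 3 probes. Its signal was 5.93 for Cyp2b3, against 7.70 to 8.56 in the other vehicle rats, 1.68 for Cyp2b2-a, against 3.22 to 4.39, and 2.66 for Cyp2b21-a, against 4.40 to 5.40. Vehicle replicate 7 had -5.41 for Cyp2b21-b, against -6.15 to -5.96 in the other vehicle rats, and this probe was above background on none of the vehicle arrays.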

How the results depend on the processing

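Cyp2b1-b passed in 28 of 31 alternatives and not with array brightness as a covariate (2.85), without slide 1 (2.70) or without slide 4 (3.04). Cyp2b1-c passed in 27 of 31 and not with brightness (1.84), without slide 1 (1.79), slide 2 (1.41) or slide 4 (1.90). Leaving out 1 array gave 2.63 to 3.07 for Cyp2b1-b and 1.62 to 1.96 for Cyp2b1-c. Cyp2b2-b passed with normexp and quantile normalization (1.16), in the authors' deposited table (1.17), with median scaling (1.24), with probes above background on all arrays (1.18) and with array weights (1.23), and leaving out 1 array gave 1.03 to 1.30. The differences that did not pass changed sign in places. Cyp2b1-a was -0.018 with slide as a block, -0.023 with array weights, -0.37 without slide 2 and -0.049 without slide 4, and -0.28 to 0.23 with 1 array left out. Cyp2b2-a was -0.22 without slide 2 and -0.085 to 0.37 with 1 array left out. Cyp2b21-a was -0.064 with slide as a block, -0.036 with array weights, -0.42 without slide 2 and -0.30 to 0.18 with 1 array left out. Cyp2b3 was 0.34 with brightness, 0.26 without slide 1 and -0.46 to 0.037 with 1 array left out. Cyp2b12 and Cyp2b15-b kept their direction in all 32 alternatives, but Cyp2b12 was 0.49 without slide 2, and Cyp2b15-b was 0.075 without slide 2 and 0.24 without vehicle replicate 3. The differences between changes of probes of 1 gene were given 22 alternatives chosen after seeing the data. The gap of Cyp2b1-b and that of Cyp2b1-c over Cyp2b1-a each passed in 21, as did the gap of Cyp2b1-b over Cyp2b1-c, and the gap of Cyp2b2-b over Cyp2b2-a in 15. That last gap was lost (0.84 to 0.88) without fipronil replicates 1 or 7 or vehicle replicates 2, 4 or 5, without slide 1 (0.66) and without slide 2 (0.97).

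The count of Cyp2b probes past the threshold, 2, was 0 with the brightest probe per gene (which leaves out Cyp2b1-b and Cyp2b1-c), 0 with brightness, 0 without slide 1, 1 without slide 2, 0 without slide 4, and 2 to 3 with 1 array left out. The count over all probes, 188, was 90 with no filter, 42 with brightness, 37 without slide 1 and 43 without slide 4. With 1 array left out it was 103 (without vehicle replicate 2) to 304 (without vehicle replicate 3), and it was 124, 115, 106, 121 and 106 without fipronil replicates 1, 7 and 8 and vehicle replicates 1 and 7. The count over the CAR lists, 15, was 9 with brightness, 9 without slide 1, 9 without slide 4, and 11 to 18 with 1 array left out. Apart from the brightest probe per gene, the cause of these changes was not tested. Fits without a slide or an array also held fewer arrays, and the part of this in the counts was not tested.

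Same-numbered fipronil and vehicle rats had deviations correlated at -0.043 to 0.366 over 7 numbers, so the numbers were not taken to pair them. With the replicate block, the count over all probes was 97, Cyp2b1-c differed by 1.90 (adjusted p = 0.0361), Cyp2b1-a by -0.074 and Cyp2b21-a by -0.095. Saturation limits Cyp2b3, and low signal limits Cyp2b21-b and Cyp2b15-a.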
